A study of Mus musculus with 12 samples.

Results

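The EPHB receptors and ephrin-B ligands are the 8 genes *Ephb1*, *Ephb2*, *Ephb3*, *Ephb4*, *Ephb6*, *Efnb1*, *Efnb2* and *Efnb3*. They were taken by symbol and make up 8 of the 21859 genes measured, with 5 receptors and 3 ligands. RNA-seq was performed on GFRa1+/KIT- spermatogonia, which are undifferentiated spermatogonia that carry the GDNF receptor GFRa1 and lack the differentiation marker KIT. Cells were sorted from GFRa1-EGFP mice of 8 to 10 weeks, in which EGFP follows the *Gfra1* gene. In the cryptorchid group, 7 libraries were made from the testis that surgery had fixed in the abdomen, 10 days after the operation. In the control group, 5 libraries were made from the testis left in the scrotum. The labels name the 2 groups as WT and cryptorchid, both groups carry the reporter, and no source used here ties libraries to single mice. Control testes were digested for 9 min at 32°C and cryptorchid testes for 9 min at 37°C, so digestion temperature and condition cannot be told apart. Each library holds the RNA of about 200 cells, amplified by Smart-seq2.

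EPHB receptors are tyrosine kinases of the cell surface that bind ephrin-B ligands, which are themselves transmembrane proteins on a neighbouring cell. Contact sends a forward signal into the cell with the receptor, through adaptor proteins that reach the cytoskeleton, and a reverse signal into the cell with the ligand, through phosphorylation of its tail and binding of PDZ proteins. The system is best known for cell repulsion, cell sorting at tissue boundaries, axon guidance and the separation of arteries from veins.

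The members were selected with the contrast between cryptorchid and control libraries in view. *Ephb2* was chosen by the study itself, on these libraries and on separate ChIP-seq libraries, for its list of developmental genes. That list draws on genes with higher mRNA in cryptorchid spermatogonia that had also lost the histone mark H3K27me3 near their start. Values of that contrast for the members are therefore given as a description. No *P*-value of a member is printed for it, and the count of members called stands beside the share of all genes called without being read. Levels of members against each other within a library were not used in the selection, and these were tested. Values are log2 RPM, in which RPM is the number of reads scaled to a common library total, on which 1 unit is a 2-fold difference.

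The start regions of *Ephb2*, the member with the largest difference, and of *Ephb1*, the member with the highest level, are shown so that their CpG content can be compared. Each stretch holds the 250 bases before the RefSeq start of the gene on GRCm38.p6, 5′ to 3′ on the strand of the gene, with CpG dinucleotides in capitals. The first is chr4:136836013-136836262 and the second chr9:102354694-102354943, both on the minus strand.
Ephb2: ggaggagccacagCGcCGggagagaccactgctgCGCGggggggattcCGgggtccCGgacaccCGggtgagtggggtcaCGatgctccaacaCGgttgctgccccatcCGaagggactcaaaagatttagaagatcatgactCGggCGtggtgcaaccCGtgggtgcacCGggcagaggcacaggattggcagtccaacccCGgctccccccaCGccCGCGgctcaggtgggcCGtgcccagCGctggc
Ephb1: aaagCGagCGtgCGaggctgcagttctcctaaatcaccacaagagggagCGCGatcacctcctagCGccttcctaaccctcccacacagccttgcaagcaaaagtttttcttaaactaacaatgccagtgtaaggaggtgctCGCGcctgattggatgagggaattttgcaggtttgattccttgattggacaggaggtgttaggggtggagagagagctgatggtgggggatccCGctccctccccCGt

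The dinucleotide CG, which reads the same on both strands, occurs 20 times in the *Ephb2* stretch and 10 times in that of *Ephb1*. At least 20 CpGs are found in 17.95% of the 32841 stretches of this length in the RefSeq table, and at least 10 in 37.81%, against a median of 6. Of the 8 members, 7 were matched in that table and *Efnb3* was not. *Ephb6* and *Efnb2* had the most, with 27 CpGs each (8.57% of stretches hold as many), followed by *Ephb3* with 16, *Efnb1* with 13 and *Ephb4* with 12. On GRCm38 in GENCODE vM21, *Ephb2* lies on chromosome 4 from 136647539 to 136835988 and *Ephb1* on chromosome 9 from 101922128 to 102354693, both on the minus strand. *Ephb3* lies on chromosome 16, *Ephb4* on 5, *Ephb6* on 6, *Efnb1* on X and *Efnb2* on 8. The counts describe the letters of these stretches and bear on no factor or mark.

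The libraries held 3306771 to 24345368 reads on genes, so 3 reads stood for -3.26 to -0.19 log2 RPM. The libraries fell into 2 sets that follow the replicate number and that the labels do not name. The share of the scaling total that lay on genes was 74.5% to 94.0% in replicates 1 to 3 and 94.8% to 99.9% in replicates 4 and above. Values within each set are given beside the pooled ones. All 9 markers of undifferentiated spermatogonia had reads in every library, and their summed level was 1030 to 1535 RPM in control and 1181 to 1907 RPM in cryptorchid libraries. In these bulk libraries fewer cells of a type and less RNA per cell cannot be told apart.

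*Ephb1* was the most abundant member, and it led the receptors in 11 of the 12 libraries. Scaled to kilobases of merged exons, its level was 2.78 ± 0.70 log2 RPKM (SD, n = 12), or 29.5% to 79.9% of the summed RPKM of the 5 receptors. The exception was cryptorchid replicate 2, in which *Ephb6* made up 61.9% of the receptor total. Among all 14 Eph receptors measured, of the A and B classes, *Ephb1* had the highest mean level and *Epha2* was next, at 1.85 ± 0.52 log2 RPKM.

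Among the ligands *Efnb3* led in 11 of 12 libraries, with 46.6% to 96.9% of the summed ligand RPKM and a level of 1.26 ± 0.65 log2 RPKM (SD, n = 12). *Efnb1* led in the remaining one, with 47.8%. Among all 8 ephrins *Efnb3* came right after *Efna5*, *Efna4* and *Efna2* in level, while *Efnb1* and *Efnb2* were the 2 lowest.

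With both conditions pooled, the members fell into 3 tiers of level that held up against the spread between libraries. Of the 28 pairs of members, 17 differed by an exact two-sided paired sign-flip permutation test over the 12 libraries, Benjamini-Hochberg adjusted over the 28 pairs. *Ephb1* exceeded each of the other members, by 1.52 (SD 1.01, against *Efnb3*) to 4.82 (SD 1.94, against *Efnb2*) log2 units, with exact adjusted *P*-values of 0.00171 to 0.00488. *Efnb3* and *Ephb6*, at 1.26 and 1.03 log2 RPKM, came next, and their difference of 0.23 (SD 0.97, higher in 8 of 12 libraries) did not pass the test (exact adjusted *P* = 0.487). Both exceeded each of the 5 remaining members, and the closest pair, *Ephb6* over *Ephb4*, differed by 1.62 (SD 2.17, higher in 9 of 12 libraries; exact adjusted *P* = 0.0120). For *Ephb1*, *Efnb3* and *Ephb6* the gap over *Ephb2* was smaller in cryptorchid libraries. Means of *Ephb1*, *Efnb3*, *Ephb6* and *Ephb2* were 2.89, 1.49, 1.41 and -1.86 log2 RPKM in control libraries. They were 2.70, 1.09, 0.76 (SD 1.29) and 0.11 (SD 0.76) in cryptorchid libraries.

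The lowest tier held *Ephb4*, *Ephb2*, *Efnb1*, *Ephb3* and *Efnb2*, in that order, from -0.60 ± 1.77 to -2.04 ± 1.39 log2 RPKM (SD, n = 12). None of the 10 pairs among them passed the test, with exact adjusted *P*-values of 0.0554 to 0.874, which does not show that their levels are alike. Their differences ranged from 0.11 to 1.45 log2 units, and the SD of the difference was 2.47 for *Ephb4* over *Ephb2*, the closest of these pairs. With the longest transcript as the length, or with no length scaling, 17 pairs differed as well. In the 7 cryptorchid libraries alone 11 pairs differed, whereas 5 control libraries cannot give an exact *P*-value under 0.0625. Within each set of 6 libraries the smallest exact *P*-value was 0.0313, and 0 pairs passed the adjustment.

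**Figure D1:**
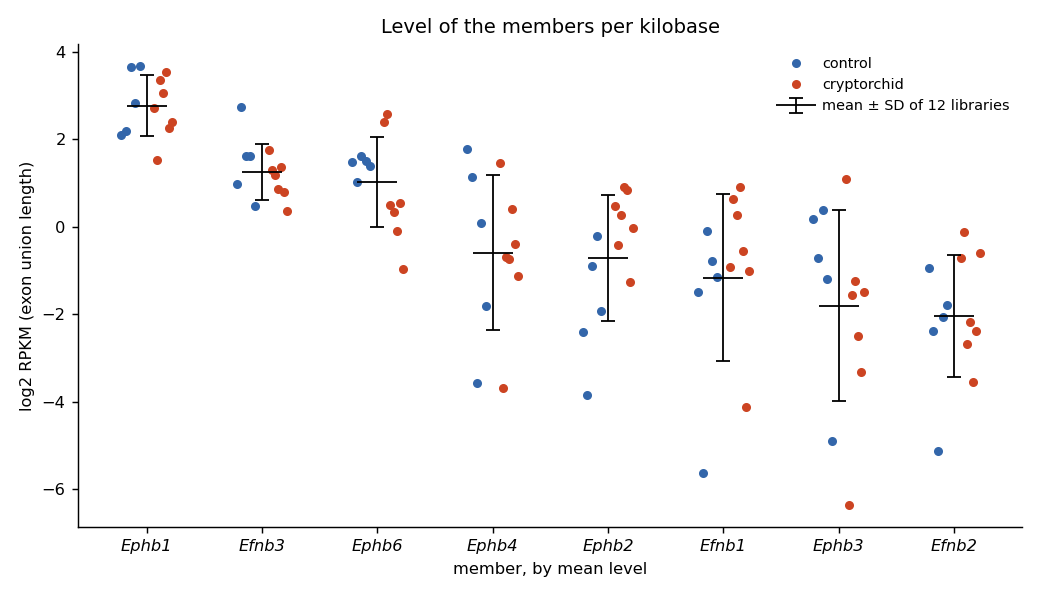
Level of each member in log2 RPKM (y axis) in 5 control and 7 cryptorchid libraries, ordered by mean; points are libraries and bars the mean ± SD of 12. *Ephb1* lies highest at a mean of 2.78, *Efnb3* and *Ephb6* follow at 1.26 and 1.03, and the lowest 5 members spread over several units each.

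Between the conditions, *Ephb2* had the largest mean difference of the 8 members and was higher in cryptorchid spermatogonia. Its mean was 1.80 ± 1.41 log2 RPM in control and 3.77 ± 0.76 log2 RPM in cryptorchid libraries (SD), a difference of 1.97 ± 0.61 on the log2 scale (SE of limma's fit over all genes, n = 5 and 7). Genes were called at over 2-fold and an unadjusted *P*-value under 0.05, the thresholds of the study, after a filter on low values that 16932 genes and all 8 members passed. By this rule 603 genes, or 3.56%, were called higher in cryptorchid and 399, or 2.36%, lower, against 457 and 542 after quantile normalization. Among the members 1 of 8 was called higher and 0 lower, a count that the choice of members bears on and from which nothing is read. The median difference of the members was -0.20, that of all genes tested 0.10.

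*Ephb2* encodes a receptor known for axon guidance, synapse formation and the sorting of intestinal epithelial cells. In control replicates 1 to 5 it was at 1.25, -0.20, 2.76, 3.45 and 1.73 log2 RPM. In cryptorchid replicates 1 to 7 it was at 4.14, 3.25, 3.93, 4.56, 4.50, 2.40 and 3.63 log2 RPM. Of the cryptorchid libraries 5 lay above every control library. Cryptorchid replicate 2, at 3.25, lay below control replicate 4 alone, and cryptorchid replicate 6, at 2.40, lay below control replicates 3 and 4, so the groups overlapped.

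The values of *Ephb2* rest on 15 to 69 reads per control and 24 to 392 reads per cryptorchid library, and the spread within each group was above counting noise, with a chi-square of 50.7 and 16.3 times its degrees of freedom. The groups were apart within replicates 1 to 3, where the difference was 2.50, and overlapped within replicates 4 and above, where it was 1.18. Leaving out each library in turn gave 1.47 to 2.39, the lowest without control replicate 2. Per kilobase *Ephb2* had rank 7 of the 8 members in control and rank 4 in cryptorchid libraries, and its share of the receptor total was 0.73% to 7.02% and 5.55% to 14.8%, respectively.

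As a group, markers of endothelial cells were also higher in cryptorchid libraries. The summed level of 9 such markers was 55.2 to 68.7 RPM in control and 69.3 to 130 RPM in cryptorchid libraries, without overlap. Means of the sum were 62.2 and 97.0 RPM, of which *Kdr* made up 6.85 and 23.5 RPM. *Kdr* is on the study's list of developmental genes, as *Ephb2* is, and a sum without it was not taken. *Kdr*, *Cdh5*, *Vwf* and *Tie1* were called higher (4 of 9), by 2.24 ± 0.62, 2.01 ± 0.67, 1.80 ± 0.74 and 2.86 ± 0.96 log2 units (SE), with limma adjusted *P*-values of 0.226 to 0.456. *Pecam1*, *Tek*, *Flt1*, *Eng* and *Emcn* had differences of 0.05 to 0.50 and were not called. *Emcn* was without reads in 2 of 5 control and 5 of 7 cryptorchid libraries, and *Tie1* in 4 of 5 and 1 of 7. In control replicates 1 to 5 the sum was 67.4, 64.3, 55.2, 55.7 and 68.7 RPM. *Ephb2* was at 2.38, 0.869, 6.76, 10.9 and 3.32 RPM in the same libraries. In cryptorchid replicates 1 to 7 the sum was 94.2, 97.7, 118, 69.3, 130, 83.5 and 86.1 RPM. *Ephb2* was at 17.6, 9.50, 15.2, 23.5, 22.5, 5.27 and 12.4 RPM in these. The part of endothelial RNA in the *Ephb2* difference was not tested.

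The summed levels of the other marker lists overlapped between the groups, while single markers in them were called. The sum of 6 spermatid markers was 475 to 2618 RPM in control and 13.5 to 1771 RPM in cryptorchid libraries. The mean log2 RPM of all 6 was lower in cryptorchid libraries. In mean RPM *Acrv1* and *Spaca1* were higher there, at 95.7 and 53.1 against 75.5 and 50.9 in control libraries. *Prm1* and *Prm2* were called lower, at -2.40 ± 0.80 and -3.73 ± 0.86 (SE; limma adjusted *P* = 0.360 and 0.134). Sums of Sertoli cell markers were 44.2 to 243 and 39.6 to 236 RPM, of macrophage markers 3.63 to 23.8 and 11.2 to 36.6 RPM, of Leydig cell markers 8.64 to 15.5 and 6.18 to 47.8 RPM, of peritubular myoid markers 1.46 to 16.5 and 0.71 to 14.5 RPM, and of lymphocyte markers 0.35 to 8.19 and 0.83 to 12.5 RPM. The macrophage marker *Mrc1* was called higher, by 2.02 ± 0.56 (SE; limma adjusted *P* = 0.226), and the myoid marker *Des*, by 2.55 ± 0.91 (adjusted *P* = 0.386). *Des* was without reads in 3 of 5 control and 1 of 7 cryptorchid libraries, with means of 0.11 and 0.85 RPM. Of the macrophage markers tested 4 had a higher mean log2 RPM and 1, *Cd68*, a lower one (-0.37). Of the myoid markers tested 3 had a higher one and 1, *Myh11*, a lower one (-1.14). Reads were found in every library for 6 of 8 Sertoli cell, 3 of 6 macrophage and 1 of 6 Leydig cell markers and for 0 of the 5 myoid and 0 of the 6 lymphocyte markers, while *Amh*, *Cyp17a1*, *Lhcgr*, *Cd163* and *Cd8a* were without reads in 10 or 11 of the 12 libraries. Differentiating spermatogonia gave 236 to 560 and 258 to 459 RPM, and spermatocytes 206 to 373 and 261 to 551 RPM. Of the markers of differentiating spermatogonia *Stra8* was called higher, by 1.09 ± 0.33, and *Dnmt3b* lower, at -1.20 ± 0.31 (SE; limma adjusted *P* = 0.273 and 0.215). The part of any of these cells in the differences of the members was not tested.

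**Figure D2:**
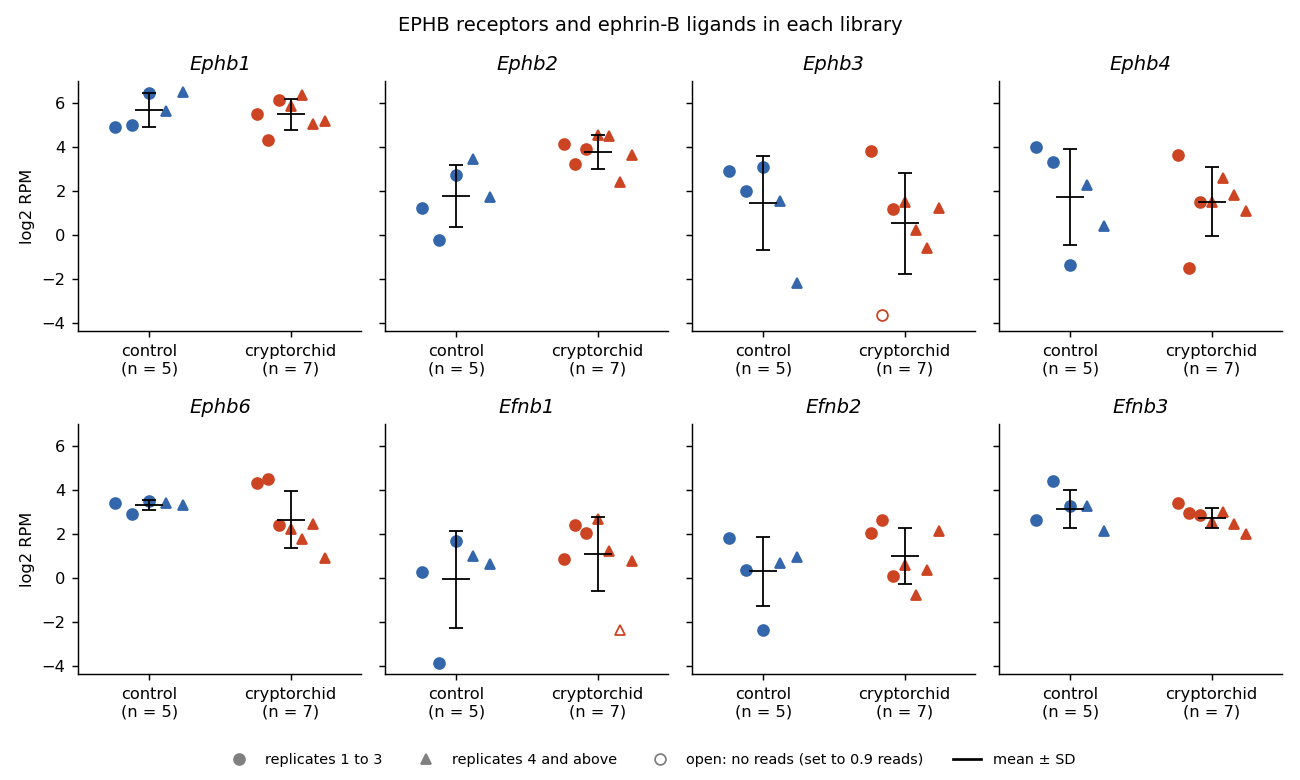
log2 RPM of each member (y axis) in control (n = 5) and cryptorchid (n = 7) libraries; circles are replicates 1 to 3, triangles replicates 4 and above, open symbols libraries without reads, and bars the mean ± SD. *Ephb2* is at -0.20 to 3.45 in control and 2.40 to 4.56 in cryptorchid libraries; *Ephb6* is tight in control libraries and spread in cryptorchid ones.

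*Ephb1*, a receptor known for guidance of retinal axons, was close to the same level in both groups. It was at 4.91, 4.996, 6.46, 5.64 and 6.49 log2 RPM in control replicates 1 to 5 and at 5.53, 4.33, 6.16, 5.88, 6.35, 5.07 and 5.20 log2 RPM in cryptorchid replicates 1 to 7. The groups overlapped over most of their range, and the difference was -0.20 ± 0.38 (SE), with -0.12 and -0.44 within the 2 sets. It came to 0.00 without control replicate 5 or cryptorchid replicate 2. *Ephb1* rests on the most reads of the family, with 153 to 1027 reads per library. Its exons overlap those of *Gm26846*, a noncoding gene on the other strand, and since the counting strand is not stated, reads of the pair cannot be separated.

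*Ephb6* was spread more widely in cryptorchid than in control libraries. The receptor it encodes lacks kinase activity and signals together with other receptors. In control replicates 1 to 5 it was at 3.41, 2.94, 3.53, 3.42 and 3.32 log2 RPM, an SD of 0.23. In cryptorchid replicates 1 to 7 it was at 4.32, 4.50, 2.42, 2.25, 1.81, 2.46 and 0.95 log2 RPM, an SD of 1.29. Cryptorchid replicates 1 and 2 lay above all control libraries and the other 5 below all of them.

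The pooled difference of *Ephb6* was -0.65 ± 0.59 (SE), and its sign was not shared by the sets. Within replicates 1 to 3 the difference was 0.45 with overlapping groups, and within replicates 4 and above it was -1.50, with groups that did not overlap. That value rests on 2 control libraries with 59 and 45 reads and 4 cryptorchid libraries with 9 to 25 reads. In control libraries *Ephb6* was also the member closest to counting noise, with a chi-square of 4.77 times its degrees of freedom against 48.9 in the cryptorchid group. Leaving out each library gave -0.96 to -0.36. Whether the set of libraries takes part in this spread was not tested.

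*Ephb3* and *Ephb4* varied too widely within each group for a difference to be read. *Ephb3*, a receptor of intestinal crypts and developing axon tracts, was at 2.90, 2.02, 3.11, 1.54 and -2.17 log2 RPM in control and at 3.83, -3.63, 1.18, 1.49, 0.23, -0.60 and 1.24 log2 RPM in cryptorchid replicates. The lowest 2 values rest on 1 read in control replicate 5 and 0 reads in cryptorchid replicate 2, while cryptorchid replicate 1 had 318 reads. The difference was -0.95 ± 1.14 (SE), and it was -2.22 within replicates 1 to 3 but 0.90 within replicates 4 and above and 0.24 with array weights, so its direction is not settled.

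*Ephb4* encodes the receptor of venous endothelium that pairs with ephrin-B2 of arteries. It was at 4.01, 3.34, -1.35, 2.30 and 0.41 log2 RPM in control and at 3.67, -1.48, 1.51, 1.49, 2.62, 1.81 and 1.10 log2 RPM in cryptorchid replicates, with 4 to 391 reads. The control libraries spanned the whole cryptorchid range but for its lowest value. The difference was -0.21 ± 0.97 (SE), and it turned positive without control replicate 1 (0.36), control replicate 2 (0.19) or cryptorchid replicate 2 (0.29). The exons of *Ephb4* overlap those of *Zan*, a sperm protein gene on the other strand that was at 2.43 ± 1.26 log2 RPM in control and 2.31 ± 1.83 in cryptorchid libraries (SD), so values of *Ephb4* are uncertain. The part of endothelial RNA in the values of *Ephb4* was not tested.

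Of the ligands, *Efnb3*, which is best known from the midline of the nervous system, had the steadiest values. It was at 2.65, 4.42, 3.29, 3.30 and 2.15 log2 RPM in control and at 3.43, 2.98, 2.86, 2.54, 3.04, 2.46 and 2.02 log2 RPM in cryptorchid replicates. The highest control library, replicate 2, lay above all others, and the rest of both groups covered much the same range. The difference was -0.40 ± 0.49 (SE), with -0.36 and -0.21 within the 2 sets, and it was -0.09 without control replicate 2.

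*Efnb1*, an X-linked ligand with roles in craniofacial patterning, was at 0.30, -3.85, 1.69, 1.001 and 0.63 log2 RPM in control and at 0.88, 2.43, 2.06, 2.70, 1.23, -2.34 and 0.78 log2 RPM in cryptorchid replicates. Control replicate 2 had 2 reads although it was the deepest library, and cryptorchid replicate 6 had 0 reads. At the floor of 3 reads that cryptorchid library would stand at -0.60 log2 RPM. The difference was 1.15 ± 1.03 (SE), fell by most without control replicate 2, to 0.20, and was 2.41 and -0.23 within the 2 sets.

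*Efnb2*, the ligand of arterial endothelium, was at 1.84, 0.40, -2.35, 0.71 and 0.995 log2 RPM in control and at 2.06, 2.67, 0.10, 0.60, -0.77, 0.40 and 2.17 log2 RPM in cryptorchid replicates. The groups overlapped, with 3 cryptorchid libraries above all controls and a single control library below all cryptorchid ones. It rests on 2 to 93 reads. The difference was 0.71 ± 0.86 (SE), and it was 0.05 without control replicate 3 and 1.65 and -0.26 within the 2 sets. The sum of endothelial markers, given above for each library, was higher in cryptorchid than in control libraries. The part of these markers in the values of *Efnb2* was not tested.

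**Figure D3:**
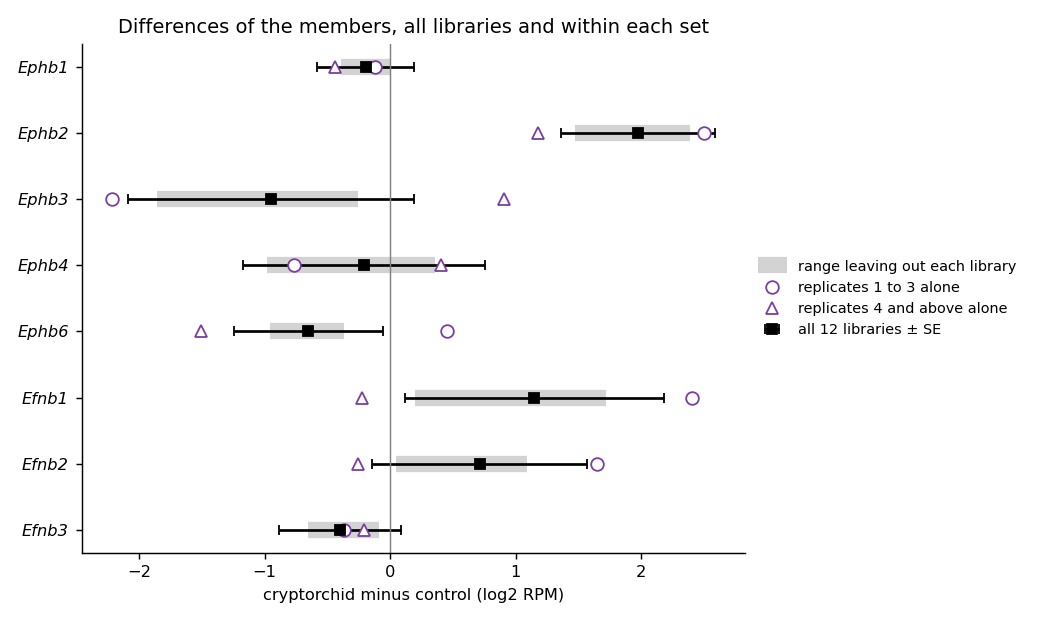
Difference of each member between cryptorchid and control libraries in log2 RPM (x axis): squares are all 12 libraries ± SE, grey bars the range when each library is left out, circles replicates 1 to 3 alone and triangles replicates 4 and above alone. *Ephb2* lies right of 0 throughout (1.18 to 2.50), and for *Ephb3*, *Ephb4*, *Ephb6*, *Efnb1* and *Efnb2* the 2 sets lie on opposite sides of 0.

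No member separated the groups without overlap, which 142 genes, or 0.839% of those tested, did. The sign of the difference was shared by both sets for *Ephb1*, *Ephb2* and *Efnb3*, and not for the other 5 members. These 5 include 4 of the 5 members in the lowest tier of level, the exception in that tier being *Ephb2*.

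The genes whose pattern over the 12 libraries was most like that of a member were found for the 4 members with at least 20 reads in 9 or more libraries, among 14538 genes with a mean of at least 20 reads. They are given as a likeness only, since the points share depth, set and condition and the best of many was taken. For *Ephb2* they were *Prxl2c* and *Sorl1*, with Pearson's r of 0.903 and 0.902. For *Ephb1* they were *Sec24a* (0.951) and *Ccdc15* (0.934), for *Ephb6* *Slc29a2* (0.914) and *Grn* (0.904), and for *Efnb3* *Slc15a3* (0.935) and *Htra2* (0.798). Within the family the highest r of the 28 pairs was that of *Ephb2* with *Efnb1*, at 0.755, and the lowest that of *Ephb1* with *Efnb2*, at -0.696.

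A further 67 genes act in Eph and ephrin signalling around the family, and all passed the filter. Of these limma called 1 higher and 1 lower in cryptorchid libraries, beside the 3.56% and 2.36% of all genes called in these directions. After Benjamini-Hochberg adjustment over all genes 0 passed by limma (2 of all genes, or 0.0118%, did) and 0 by voom on recovered reads. An unadjusted *P*-value under 0.05 was found for 6 of the 67 and for 9.48% of all genes. Their median difference was 0.11, against 0.10 for all genes tested.

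The gene called higher was *Grip1*, a PDZ scaffold protein that binds the tail of ephrin-B ligands. It was at 5.58, 5.45, 7.88, 7.13 and 7.20 log2 RPM in control and at 6.51, 6.80, 8.55, 8.06, 8.49, 7.38 and 8.01 log2 RPM in cryptorchid replicates, a difference of 1.04 ± 0.45 (SE; limma adjusted *P* = 0.480). The groups overlapped, with 5 cryptorchid libraries above 4 of the 5 control libraries. Its call was lost without control replicate 1 (0.77) or 2 (0.74) and without cryptorchid replicate 3 (0.90), 4 (0.98), 5 (0.91) or 7 (0.99), and with median centring (0.97) or a term for the set (0.91). Within the 2 sets the difference was 0.99 and 0.82.

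The gene called lower was *Arhgef15*, a guanine nucleotide exchange factor that binds EPHB2. It was at 6.04, 5.41, 4.76, 5.72 and 5.44 log2 RPM in control and at 5.20, 5.15, 3.70, 4.13, 4.72, 4.43 and 3.78 log2 RPM in cryptorchid replicates, and it fell by 1.03 ± 0.35 (SE; limma adjusted *P* = 0.360). All cryptorchid libraries lay below 4 of the 5 control libraries. The call was lost, by the 2-fold limit, without control replicate 1 (-0.89) or 4 (-0.97) and without cryptorchid replicate 3 (-0.91), 4 (-0.98) or 7 (-0.92), and also by voom on recovered reads (-0.93) and with log2(RPM + 1) (-0.995). Within the 2 sets the difference was -0.72 and -1.32.

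Among the other receptors and ligands the main limma fit called 0 of 14. *Epha4* was called by voom, with a block for the replicate number and without control replicate 3. *Epha7* was called with array weights and without control replicate 3, and *Efna5* with array weights and with the block. These genes were named after their values were seen. The 9 EPHA receptors had a median difference of 0.04 and the 5 ephrin-A ligands one of -0.23. *Epha5* and *Epha2*, the EPHA receptors with the highest RPM, had differences of -0.50 ± 0.34 and 0.04 ± 0.38 (SE). *Efna5* and *Efna4*, the leading ephrin-A ligands, had 0.79 ± 0.37 and -0.32 ± 0.46.

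Downstream of the receptors, 0 of 14 adaptors and kinases were called, with a median difference of 0.19. *Fyn*, a Src family kinase, had a difference of 0.18 ± 0.30 (SE), and *Rasa1*, which turns off Ras, one of 0.52 ± 0.26.

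Among 11 partners of the ephrin-B tail, 1 was called (*Grip1*) and the median difference was 0.19. *Ptpn13*, a phosphatase with PDZ domains that acts on ephrin-B, and *Sdcbp*, the PDZ protein syntenin, were its most abundant members, at 399 and 301 RPM, with differences of 0.35 ± 0.38 and 0.19 ± 0.28 (SE). Of 11 genes of cleavage, dephosphorylation and turnover 0 were called, and their median was 0.01. *Adam10*, the protease that cleaves ephrins, and *Cbl*, which marks receptors for degradation, had 0.01 ± 0.36 and 0.01 ± 0.28.

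**Figure D4:**
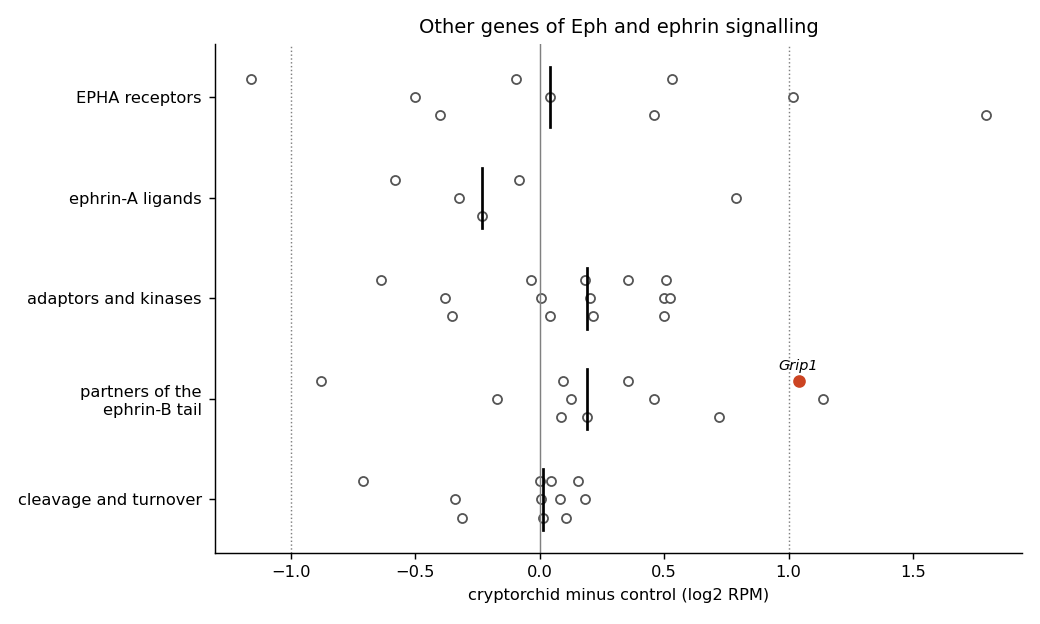
Difference between cryptorchid and control libraries in log2 RPM (x axis) for 50 of the 67 genes, in 5 lists; each point is a gene, filled where called, black ticks are list medians and dotted lines mark a 2-fold difference. *Grip1* at 1.04 is the gene called in these lists, and the list medians lie between -0.23 and 0.19.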

How the data were processed

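RNA was measured in 12 libraries, 5 control and 7 cryptorchid, grouped by their titles. The deposited values are log2 RPM per gene: per the labels and the study's methods, the authors trimmed reads with Trim Galore 0.6.6, mapped them to mm10 with HISAT2 2.1.0, took read counts of protein-coding genes in SeqMonk, with no strand setting given, and scaled them. No molecular identifiers were used, so read numbers and floors cover counting error only. Replicates differed by 12.8 to 253 times sampling noise. Nothing says that they came from separate animals, so *P*-values measure the spread between these libraries.

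Reads were recovered from the steps of each library (100% whole within 0.01 below 1000 reads). Genes without reads carry the value of 0.9 reads. The contrast was fitted with limma 3.58.1 (R 4.3.3, trend) over genes with log2 mean RPM above -1, and tested on simulated data. Lengths are merged exons of GENCODE vM21. The paired sign-flip test and plots used Python 3.11.15, numpy 2.4.6, scipy 1.17.1 and matplotlib 3.10.9. The members and lists were chosen with earlier results of these data known. Named genes are the members, pathway genes called, the 2 most abundant per list and the 2 most like each well-measured member. Genes of the marker lists were named after their values were seen. The values of 1 pathway list, apart from its called gene, are not reported here.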

Additional observations from a re-analysis of the deposited data

Results flagged for a closer look

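In 2 of 20 groups of values checked (the 8 members and the 2 pathway genes called, in each condition), 1 library stood apart from the rest by the gap to its nearest neighbour, where chance gives about 1 in 20. Both are *Efnb1*. Control replicate 2 was at -3.85 log2 RPM with 2 reads, while the other control libraries were at 0.30 to 1.69 (gap of 0.749 of the range). Cryptorchid replicate 6 was at -2.34 log2 RPM with 0 reads, while the others were at 0.78 to 2.70 (gap of 0.619).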

How the results depend on the processing

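Of 200 differences of members under the alternatives, 199 moved by less than 1 SD between replicates, and *Ephb6* moved to 0.45 in replicates 1 to 3 alone. The alternatives that change the filter on low values could not move a member, since its difference does not depend on that filter. The limit of 1 SD is wide for members with few reads and lets the sign change. In replicates 4 and above alone *Ephb3* went from -0.95 to 0.90 and *Efnb1* from 1.15 to -0.23. The count of members called was 2 with array weights (*Ephb6* added) and 0 in replicates 4 and above alone, and leaving out a library gave 1 throughout. The count of pathway genes called was 1 with median centring, log2(RPM + 1) or a term for the set, 6 with array weights, 0 in replicates 1 to 3 alone and 4 in replicates 4 and above alone, and 0 to 5 when a library was left out. With adjustment array weights called 1 pathway gene, *Arhgef15*. Pairs of members that differ in level numbered 17 to 18 when a library was left out, 20 with log2(RPM + 1), 0 in control libraries alone, 11 in cryptorchid libraries alone and 0 in either set alone. The 2 comparisons by set were chosen after the data were seen. Over all genes, calls lower in cryptorchid rose from 399 to 703 with array weights, 635 with a term for the set and 705 in replicates 4 and above alone, and calls higher were 287 in replicates 1 to 3 alone. Adjusted calls over all genes numbered 476 with array weights and 46 with a term for the set. The causes were not tested. *Ephb3*, *Ephb4*, *Efnb1* and *Efnb2* had 4 or fewer reads in some libraries, deep ones among them, and counting error is largest there.

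Libraries of the same number in both groups were not shown to be paired. Deviations from the group means correlated at 0.35, 0.36, 0.41, 0.25 and 0.05 for numbers 1 to 5, where all but number 5 correlated best with their own number and number 5 with cryptorchid replicate 7. With a replicate block over 10 libraries, 1 member was called, and 1 passed adjustment (*Ephb2*). The block gave 4 pathway genes called, with 3 after adjustment (*Grip1*, at 1.04 ± 0.15 SE, *Arhgef15*, at -0.90 ± 0.24 SE, and *Wasl*; limma adjusted *P* = 0.003 and 0.0441 for the first pair), and 785 genes higher, 893 lower and 985 after adjustment over all genes.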
